A study of Homo sapiens with 11 samples.

Results

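The genes described here are 9 members of the interleukin 6 family and its STAT3 feedback loop, taken by symbol from 28152 gene symbols in the deposited tables. They are the cytokines IL6, LIF and IL11, the receptor chains IL6R, IL6ST, OSMR and LIFR, the transcription factor STAT3 and its inhibitor SOCS3. RNA sequencing was done on tumours grown from BT-474, a human breast cancer line labelled as positive for hormone receptors and HER2, in the mammary fat pad of female athymic nude mice. Every animal, controls included, carried an estradiol pellet (0.72 mg, made to last 90 days), and a tumour qualified above 95 cubic millimetres. The 6 vehicle tumours came from animals given mannitol in water under the skin every 4 days. The 5 evexomostat tumours came from animals given evexomostat (SDX-7320) at 12 mpk on the same schedule, and all libraries are labelled day 33. Evexomostat inhibits methionine aminopeptidase 2, an enzyme that removes the first methionine from new proteins. The comparison asks how these genes differed between tumours of treated and control animals.

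Cytokines of this family act through IL6ST, also called gp130, a signalling chain that they share. IL6 first binds IL6R and IL11 binds IL11RA before gp130 is engaged, whereas LIF signals through LIFR with gp130 and oncostatin M through OSMR with gp130. Janus kinases bound to these chains phosphorylate STAT3, which enters the nucleus and switches on target genes, among them SOCS3, whose product binds gp130 and shuts the signal off. In breast tumours IL6 can be made by the cancer cells or by surrounding fibroblasts and macrophages.

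All 9 genes passed the filter on low counts, with 58 to 13182 reads per gene and library. Library totals ran from 22808033 to 39249329 counts. Levels are read counts scaled by TMM factors to a common library total (CPM), and a fold change is evexomostat over vehicle. The factors ran from 0.860 to 1.039 in vehicle tumours and from 1.005 to 1.083 in evexomostat tumours. Dividing by them thus lowers all evexomostat values and raises most vehicle values. Vehicle replicate 001 stood apart from the other libraries, since its top 100 genes took 23.9% of all reads and those of the other 10 took 16.2% to 17.9%, so the fold change of each member is given with and without it. The labels do not say that each tumour came from its own animal, so the p-values measure the spread between these samples. Of 10 markers of luminal breast epithelium in vehicle tumours, KRT8 averaged 346.0 CPM, KRT18 134.3, ERBB2 52.5, GATA3 6.25, EPCAM 2.72 and FOXA1 1.06. KRT19 averaged 0.532 CPM, CDH1 0.474, ESR1 0.329 and PGR 0.0682. The transcripts of the hormone receptors named in the labels were thus close to absent, as were those of KRT19 and CDH1. ERBB2, the gene of HER2, was above these but below KRT8 and KRT18. Whether these levels are those of a HER2-positive luminal line was not tested.

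With all 11 tumours, 0 of the 9 members had an adjusted p-value under 0.05 in edgeR's quasi-likelihood test, where 0.606% of 16653 tested genes did. At an unadjusted p under 0.05 there were 6 members, 5 with lower and 1 with higher levels under evexomostat, against 8.55% and 4.82% of all tested genes. The 5 were IL6, IL6ST, OSMR, STAT3 and SOCS3, and the 1 was IL11. Without vehicle replicate 001, 5 members passed the adjusted threshold. Of these, IL6, IL6ST, STAT3 and SOCS3 fell and IL11 rose, in a comparison where 3.24% of 16565 genes fell and 1.98% rose. The same 5 members passed in limma-voom with sample quality weights, where 6.36% of genes passed. Such weights give less influence to libraries that stand apart, so this fit is not independent of leaving out vehicle replicate 001. DESeq2 called 3 members, IL6, IL6ST and STAT3, all lower, where 2.7% of genes were called lower. Plain limma-voom and limma-trend on RPM called 0 of the 9. The median log2 fold change of the 9 members was -0.48, against -0.0388 over all tested genes.

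**Figure D1:**
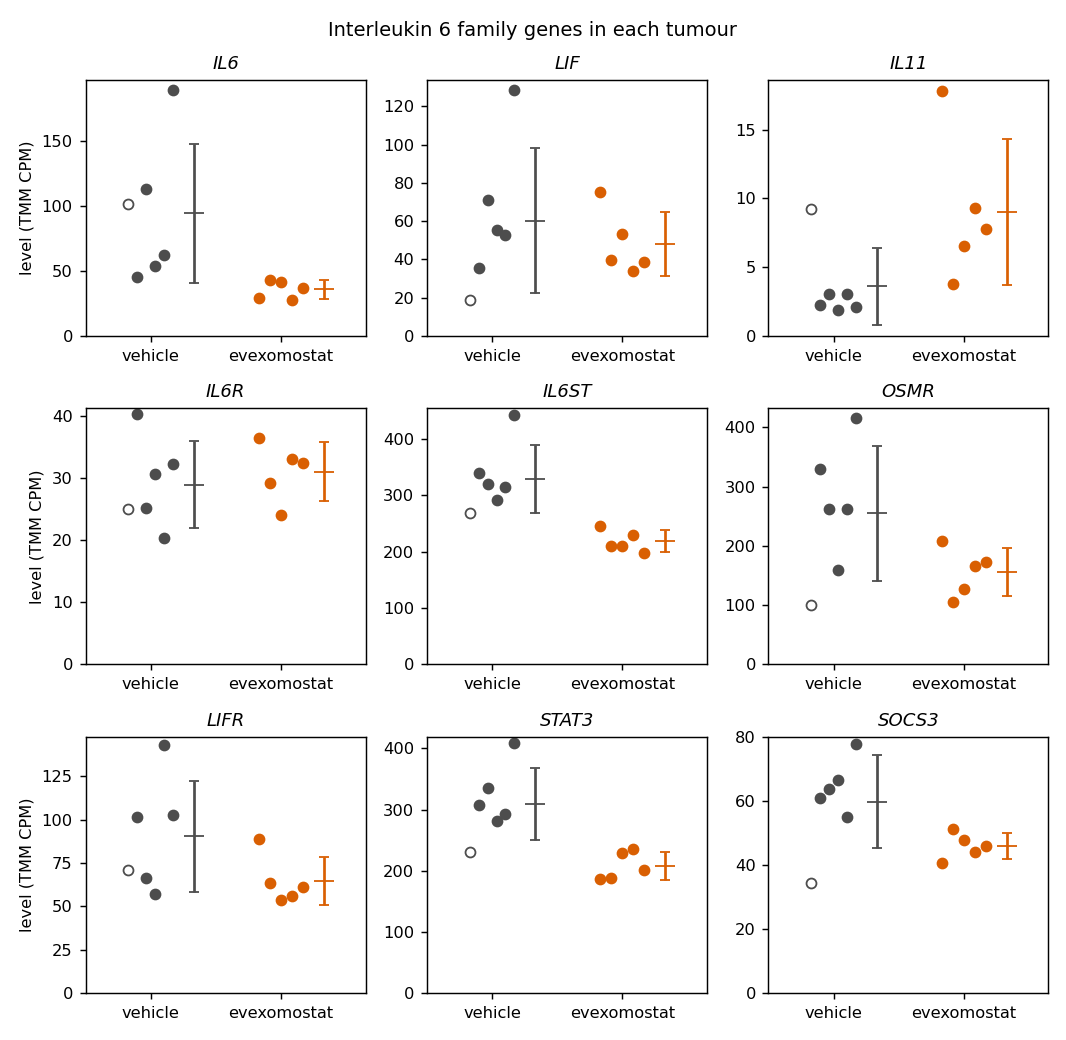
Level of each member in each tumour, in TMM-scaled CPM on linear axes that start at 0; every point is 1 tumour, the open point is vehicle replicate 001, and the bar beside each group is its mean with the SD (n = 6 vehicle, n = 5 evexomostat). IL6 and IL6ST are the genes whose groups do not overlap, and for IL11, STAT3 and SOCS3 the open vehicle point lies within or beyond the evexomostat range.

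Among the cytokines, IL6 had the largest fold change with all 11 tumours, and IL11 had it without vehicle replicate 001. In the 6 vehicle tumours IL6 ran from 45.2 CPM in replicate 003 through a median of 82.0 to 188.8 CPM in replicate 007. In the 5 evexomostat tumours it was 29.1, 43.4, 41.8, 27.4 and 37.0 CPM in replicates 002, 003, 004, 005 and 007. Every evexomostat tumour was thus below every vehicle tumour, by a narrow margin between the lowest vehicle and the highest evexomostat value. The means were 94.1 ± 53.7 CPM (n = 6, SD) and 35.7 ± 7.24 CPM (n = 5, SD). The log2 fold change was -1.40 (SE 0.33, 95% interval -2.12 to -0.68, adjusted p = 0.0811 by edgeR), or 0.380 of the vehicle level. With vehicle replicate 001 left out, it was -1.37 (SE 0.35) and IL6 passed the threshold (adjusted p = 0.0455 by edgeR). Its unadjusted p did not fall, at 0.00209 against 0.00102 with all tumours (both by edgeR). The adjustment depends on all genes tested, and 865 genes passed there against 101 with all tumours. Without vehicle replicate 007, the highest tumour, the log2 fold change of IL6 was -1.07 (adjusted p = 0.107 by edgeR). On the deposited RPM scale, which has no TMM factor, the groups overlapped. IL6 also varied more between vehicle tumours than between evexomostat tumours, by 4.18-fold from lowest to highest against 1.58-fold, a difference that was not tested.

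IL11, which stimulates stroma and platelet precursors through its own receptor IL11RA, was the least abundant member and had the opposite sign. Vehicle tumours held from 1.88 CPM in replicate 005 through a median of 2.65 to 9.26 CPM in replicate 001. Evexomostat tumours held 17.8, 3.76, 6.52, 9.27 and 7.77 CPM in replicates 002, 003, 004, 005 and 007. The groups overlapped only through vehicle replicate 001, since the other 5 vehicle tumours reached at most 3.06 CPM. The means were 3.61 ± 2.81 CPM (n = 6, SD) and 9.02 ± 5.29 CPM (n = 5, SD), a log2 fold change of 1.34 (SE 0.46, adjusted p = 0.216 by edgeR). After leaving out vehicle replicate 001, IL11 rose by 1.87 on the log2 scale, or 3.66-fold (SE 0.35, adjusted p = 0.0154 by edgeR). Evexomostat replicate 002 carried much of the mean, and leaving it out gave 0.94 on the log2 scale (adjusted p = 0.454 by edgeR).

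LIF, a cytokine best known for keeping embryonic stem cells undifferentiated, showed no difference beyond its spread. Vehicle tumours ran from 18.7 CPM in replicate 001 through a median of 54.3 to 128.5 CPM in replicate 007. Evexomostat tumours had 75.3, 39.5, 53.4, 34.0 and 38.6 CPM in the same order of replicates as above, inside the vehicle range. Apart from vehicle replicate 001 the lowest vehicle tumour was at 35.6 CPM, just above evexomostat replicate 005. The log2 fold change was -0.33 (SE 0.39, adjusted p = 0.785 by edgeR), with a 95% interval from -1.16 to 0.51, so a fold between 0.448 and 1.42 is within the error. It was -0.50 without vehicle replicate 001 (adjusted p = 0.351 by edgeR) and turned to 0.0418 without vehicle replicate 007 (adjusted p = 0.976 by edgeR). Within a library, there were 96.9 to 544.4 IL6 reads per 100 LIF reads in vehicle tumours and 38.7 to 109.7 in evexomostat tumours. IL11 reads per 100 IL6 reads ran from 1.13 to 9.11 under vehicle and from 8.68 to 61.1 under evexomostat. These ratios do not depend on scaling between libraries, and both overlapped between groups, IL11 to IL6 through vehicle replicate 001 and evexomostat replicate 003.

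The promoters of IL6 and IL11 are shown because these cytokines had the largest differences, in opposite directions. Each stretch is the 250 bases before the transcription start in RefSeq's table for GRCh38.p14, matched by symbol, 5′ to 3′ on the gene's strand, with matches to the searched motifs in capitals. The IL6 stretch is chr7:22726950-22727199 (plus strand) and the IL11 stretch is chr19:55370464-55370713 (minus strand).
IL6: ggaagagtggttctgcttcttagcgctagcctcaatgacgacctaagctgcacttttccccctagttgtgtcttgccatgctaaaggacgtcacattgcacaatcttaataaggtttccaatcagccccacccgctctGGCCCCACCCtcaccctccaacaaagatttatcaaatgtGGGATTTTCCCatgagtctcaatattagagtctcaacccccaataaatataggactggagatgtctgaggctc
IL11: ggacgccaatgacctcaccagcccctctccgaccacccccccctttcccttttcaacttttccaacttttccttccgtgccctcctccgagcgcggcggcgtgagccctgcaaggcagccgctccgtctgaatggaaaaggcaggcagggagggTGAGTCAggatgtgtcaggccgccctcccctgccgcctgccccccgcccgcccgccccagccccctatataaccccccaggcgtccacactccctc
The motifs searched on both strands were TTCNNNGAA for STAT proteins, GGG and CC with 5 free bases between them for NF-kB, and TGANTCA for AP-1. In IL6 the capitals mark matches to the NF-kB pattern, at positions -112 to -103 and, as an overlapping pair, -73 to -64 and -72 to -63. In IL11 they mark 1 match to TGANTCA at positions -96 to -90. Of 35116 promoters of this length in the table, 6.57% held TTCNNNGAA, 54.4% held the NF-kB pattern and 6.57% held TGANTCA, so the NF-kB pattern is common at this window size. Of the 9 members, 8 had a promoter entry, all except LIF. TTCNNNGAA occurred in 2 of the 3 listed LIFR promoters and in no listed window of the other members. Only the 250 bases before each listed start were searched. Sequence outside these windows, such as that between the listed SOCS3 windows, was not searched, so a STAT element there would be missed. A match is a run of letters, and no binding was measured here.

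**Figure D2:**
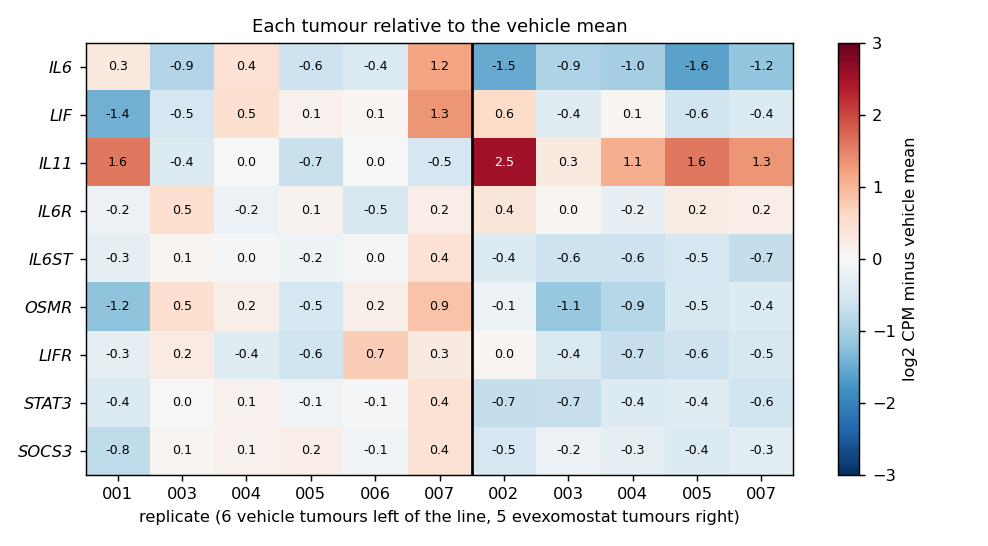
Log2 CPM of each member in each tumour minus the mean of the 6 vehicle tumours, with the value printed in each cell; red is above and blue below the vehicle mean. The IL6 row is below 0 in all 5 evexomostat tumours and the IL11 row above 0 in all 5, and vehicle replicate 001 is at 1.6 for IL11 and -1.4 for LIF.

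Among the receptors, IL6ST, the shared signal-transducing chain, differed most clearly relative to its error. Vehicle tumours ran from 268.8 CPM in replicate 001 through a median of 317.7 to 442.5 CPM in replicate 007. Evexomostat tumours had 246.0, 210.7, 210.2, 229.8 and 197.6 CPM in replicates 002, 003, 004, 005 and 007. No evexomostat tumour reached the lowest vehicle tumour. Of the 9 members, IL6 and IL6ST were the 2 with groups that did not overlap, both lower, against 1.64% of tested genes that did so in that direction. On the RPM scale neither gene kept this separation. The log2 fold change of IL6ST was -0.59 (SE 0.14, 95% interval -0.90 to -0.28, adjusted p = 0.0829 by edgeR). Once vehicle replicate 001 was left out, IL6ST fell by 0.64 on the log2 scale (SE 0.12, adjusted p = 0.0149 by edgeR).

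OSMR, the receptor chain for oncostatin M, had a wide vehicle range. Vehicle tumours ran from 100.6 CPM in replicate 001 through a median of 262.1 to 416.6 CPM in replicate 007, and evexomostat tumours from 105.1 CPM in replicate 003 to 208.2 CPM in replicate 002. The groups overlapped through vehicle replicates 001 and 005. The log2 fold change was -0.71 (SE 0.31, adjusted p = 0.334 by edgeR), and -0.87 without vehicle replicate 001 (adjusted p = 0.0558 by edgeR), so OSMR passed in neither comparison. LIFR, the chain for LIF, averaged 90.3 ± 32.1 CPM (n = 6, SD) under vehicle and 64.6 ± 14.1 CPM (n = 5, SD) under evexomostat, at a log2 fold change of -0.48 (SE 0.23, adjusted p = 0.387 by edgeR). Its vehicle tumours ranged from 57.0 to 143.3 CPM and its evexomostat tumours from 53.6 to 88.8 CPM, with broad overlap. Without vehicle replicate 001 its log2 fold change was -0.53 (adjusted p = 0.178 by edgeR). IL6R, the chain that binds IL6 itself, was at 28.9 ± 7.02 CPM (n = 6, SD) and 31.0 ± 4.71 CPM (n = 5, SD). Its log2 fold change was 0.10 (SE 0.18, adjusted p = 0.870 by edgeR), with a 95% interval from -0.28 to 0.48, so a fold between 0.825 and 1.39 is within the error. Without vehicle replicate 001 it was 0.0678 (adjusted p = 0.848 by edgeR).

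STAT3 is the transcription factor that all these receptors activate. Vehicle tumours ran from 230.1 CPM in replicate 001 through a median of 300.3 to 408.2 CPM in replicate 007. Evexomostat tumours had 186.1, 188.5, 228.2, 236.0 and 200.7 CPM in replicates 002, 003, 004, 005 and 007. Apart from vehicle replicate 001, which lay inside the evexomostat range, no vehicle tumour was below 281.5 CPM. The log2 fold change was -0.57 (SE 0.15, adjusted p = 0.112 by edgeR) with all tumours. Without vehicle replicate 001 STAT3 fell by 0.64 (SE 0.12, adjusted p = 0.0146 by edgeR).

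SOCS3 is the feedback inhibitor that STAT3 induces. Vehicle tumours ran from 34.5 CPM in replicate 001 through a median of 62.3 to 78.0 CPM in replicate 007. Evexomostat tumours had 40.8, 51.2, 47.9, 43.9 and 46.1 CPM in the same order. Vehicle replicate 001 was thus below all 5 evexomostat tumours, while the other 5 vehicle tumours, at 54.9 CPM or more, were above all of them. The log2 fold change was -0.38 (SE 0.17, adjusted p = 0.365 by edgeR). With vehicle replicate 001 left out, SOCS3 fell by 0.49 (SE 0.11, adjusted p = 0.0274 by edgeR). SOCS3 reads per 100 STAT3 reads were 19.2 ± 2.78 (n = 6, SD) under vehicle and 22.3 ± 3.14 (n = 5, SD) under evexomostat, with overlapping ranges. After leaving out vehicle replicate 001, groups did not overlap in 5 members, IL6, IL6ST, STAT3 and SOCS3 lower and IL11 higher, against 4.36% and 3.98% of tested genes. These are the 5 members that passed the threshold in that comparison, which uses the same values. On the RPM scale IL6 still overlapped without vehicle replicate 001, at 47.0 RPM in evexomostat replicate 003 and 44.6 RPM in vehicle replicate 003.

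**Figure D3:**
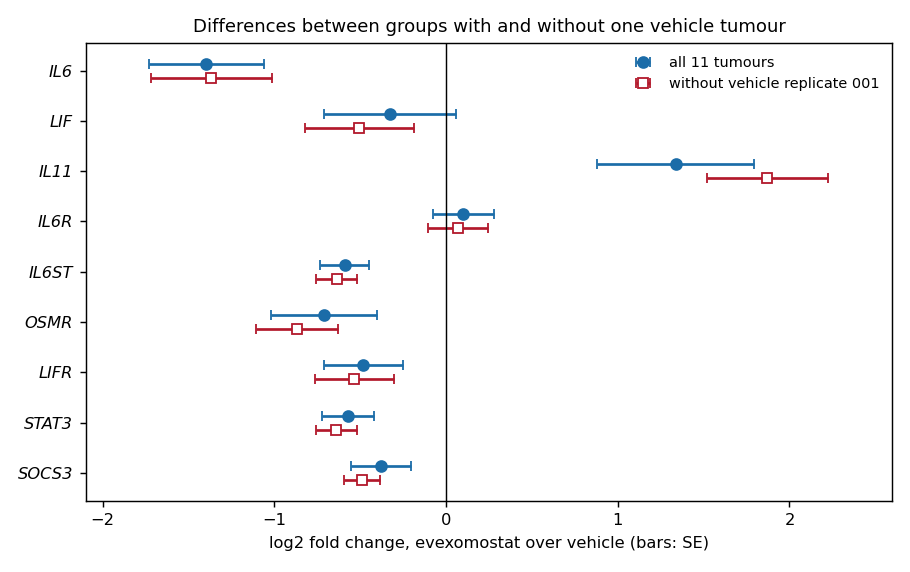
Log2 fold change of each member (evexomostat over vehicle) with its SE, fitted on all 11 tumours (filled circles) and without vehicle replicate 001 (open squares). IL6 lies at -1.40 and -1.37 in the 2 fits, IL11 moves from 1.34 to 1.87, and the SE of STAT3 and SOCS3 shrinks from 0.15 and 0.17 to 0.12 and 0.11.

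The same tumours were extreme for many members. Vehicle replicate 007 was the highest vehicle tumour for 6 of the 9, IL6, LIF, IL6ST, OSMR, STAT3 and SOCS3. Vehicle replicate 001 was the lowest for 5, LIF, IL6ST, OSMR, STAT3 and SOCS3, and the highest for IL11. Between members, the closest pair of profiles over the 11 tumours was IL6ST and STAT3, with a root mean square gap of 0.142 log2 units after centring each gene on its mean. STAT3 and SOCS3 followed at 0.215 and IL6ST and SOCS3 at 0.261, while IL6 and IL11 were the farthest apart at 1.60. These gaps include the difference between groups, and all genes share the library scaling.

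Levels between genes are compared per kilobase of merged exons in GENCODE 29. In vehicle tumours STAT3 was highest at 61.3 CPM per kb, then IL6 at 54.9, OSMR at 41.5 and IL6ST at 36.3. SOCS3 followed at 21.9, LIF at 15.2, LIFR at 8.68, IL6R at 4.80 and IL11 at 1.52 CPM per kb. Of the neighbours in this order, IL6ST and SOCS3 were the pair whose ranges over tumours did not overlap. In evexomostat tumours IL6 stood at 20.9 CPM per kb, behind STAT3 at 41.2, OSMR at 25.4 and IL6ST at 24.1, and the ranges of IL6, OSMR and IL6ST overlapped. There STAT3 and OSMR, and LIF and LIFR, were the neighbours whose ranges stayed apart. The ligand-binding chain IL6R was thus far below the shared chain IL6ST in both groups, at 5.15 against 24.1 CPM per kb under evexomostat.

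By the same root mean square gap, the genes nearest to IL6 among 14370 compared over 11 tumours were SLC44A3 (0.279 log2 units), CYP27B1 (0.313) and PRRG4 (0.325), where the median gene lay at 0.892. CYP27B1 encodes the enzyme that activates vitamin D. PRRG4 averaged 10.7 CPM under vehicle and 3.92 CPM under evexomostat and fell by 1.45 on the log2 scale (adjusted p = 0.0233 by edgeR). The nearest to LIF were LRRK1, GPR176 and TANC2 at 0.267 to 0.291, where the median was 0.761. The nearest to SOCS3 were ACSS2, a cytosolic enzyme that makes acetyl-CoA, at 0.0915, NUCB1 at 0.112 and MVP at 0.122, with a median of 0.459.

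The other genes of the pathway formed a list of 69, of which 59 were tested. With all tumours, 0 passed the adjusted threshold in edgeR, against 0.606% of all genes. At an unadjusted p under 0.05, 18 were lower and 3 higher, against 8.55% and 4.82% of all genes, MYC and PIM1 among the higher. Once vehicle replicate 001 was left out, 6 of the 59 fell and 0 rose, against 3.24% and 1.98% of all genes. The 6 were EBI3, STAT5A, STAT4, JAK1, CP and SAA2. With all tumours, DESeq2 and quality weights called 7 of the 59 each, all lower, against 2.7% and 4.05% of all genes called lower. JAK1, PIAS2, MYC and PIM1 were singled out after their values were seen. The median log2 fold change of the 59 was -0.126.

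Of the 7 other ligands, 4 were tested. EBI3, a subunit shared by interleukins 27 and 35, averaged 14.2 ± 8.88 CPM (n = 6, SD) under vehicle and 4.24 ± 1.43 CPM (n = 5, SD) under evexomostat. Its vehicle tumours ran from 7.86 to 31.5 CPM and its evexomostat tumours from 2.89 to 5.83 CPM, without overlap. Its log2 fold change was -1.75 (SE 0.37, adjusted p = 0.0590 by edgeR), and without vehicle replicate 001 EBI3 fell by 1.78 (adjusted p = 0.0285 by edgeR). IL27, its partner subunit, was at 0.677 and 0.270 CPM (adjusted p = 0.296 by edgeR), and CLCF1, a ligand of the ciliary neurotrophic factor receptor, at 31.1 and 34.9 CPM (adjusted p = 0.698 by edgeR). OSM, the ligand of OSMR, was at 0.496 and 0.563 CPM (adjusted p = 0.942 by edgeR) and was added after its value was seen. Of the 6 other receptors, 0 passed in edgeR with or without vehicle replicate 001 and 0 in DESeq2. IL31RA was at 2.71 and 3.99 CPM (adjusted p = 0.392 by edgeR) and IL27RA at 50.6 and 44.3 CPM (adjusted p = 0.708 by edgeR).

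All 26 kinases, STATs, adaptors and brakes were tested, with a median log2 fold change of -0.106. STAT5A, which prolactin signalling uses in the breast, was at 19.6 ± 1.26 CPM (n = 6, SD) under vehicle and 13.6 ± 1.66 CPM (n = 5, SD) under evexomostat. The ranges, 17.4 to 21.0 and 11.8 to 15.3 CPM, did not overlap, at a log2 fold change of -0.53 (SE 0.13, adjusted p = 0.0817 by edgeR). PIAS2 did not overlap either, at 31.1 to 37.9 and 25.75 to 30.6 CPM (adjusted p = 0.334 by edgeR). Over all tested genes, 1.64% were lower without overlap in CPM. For EBI3, STAT5A, PIAS2 and CP overlap was not checked on the RPM scale. Without vehicle replicate 001 STAT5A fell by 0.56 (adjusted p = 0.0200 by edgeR), STAT4 by 1.35 (adjusted p = 0.0327 by edgeR) and JAK1, a kinase bound to gp130, by 0.45 (adjusted p = 0.0470 by edgeR).

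Of 30 genes known to respond to STAT3 in other settings, 23 were tested, 16 with a log2 fold change below 0 and 7 above, where 55.4% of all tested genes were below 0. Their median was -0.485, against -0.0388 over all tested genes. CP, which encodes the copper carrier ceruloplasmin, ran from 2.91 to 38.2 CPM in vehicle tumours and from 1.55 to 2.81 CPM in evexomostat tumours. The groups did not overlap, by a narrow margin between 2.91 and 2.81 CPM, and vehicle tumours varied widely around their mean (14.6 ± 13.5 CPM, n = 6, SD). The log2 fold change was -2.79 (SE 0.59, adjusted p = 0.0584 by edgeR). With vehicle replicate 001 left out, CP fell by 2.99 (adjusted p = 0.0117 by edgeR). SAA1 and SAA2 encode the acute phase protein serum amyloid A in near-identical copies, so reads could have been split between them. SAA1 averaged 194.6 ± 82.8 CPM (n = 6, SD) and 52.6 ± 48.3 CPM (n = 5, SD), and SAA2 24.6 ± 13.3 and 4.88 ± 4.23 CPM. The log2 fold changes were -1.89 (adjusted p = 0.105 by edgeR) and -2.34 (adjusted p = 0.0665 by edgeR). After leaving out vehicle replicate 001, SAA2 fell by 2.42 (adjusted p = 0.0294 by edgeR) and SAA1 stayed at -1.86 (adjusted p = 0.0565 by edgeR). MYC and PIM1, 2 further genes of this list, averaged 114.7 and 26.4 CPM under vehicle and 160.2 and 34.2 CPM under evexomostat (adjusted p = 0.224 and 0.343 by edgeR).

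**Figure D4:**
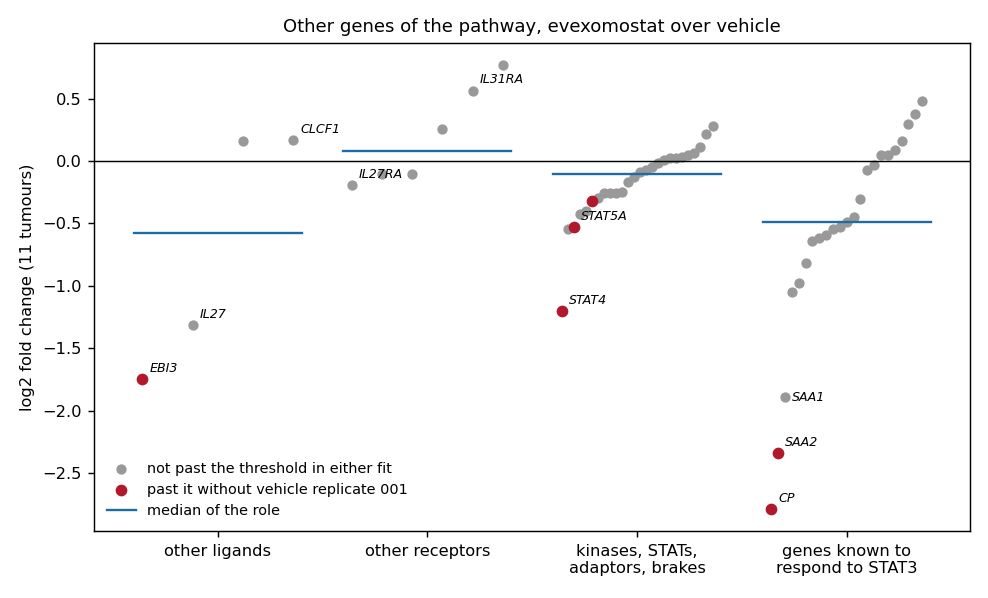
Log2 fold change (evexomostat over vehicle, 11 tumours) of the 59 tested pathway genes other than the members, by role; red points passed the adjusted threshold once vehicle replicate 001 was left out, and the blue line is the median of each role. The red points EBI3, STAT4, STAT5A, JAK1 (unlabelled), SAA2 and CP all lie below 0, and CP is lowest at -2.79.

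Markers of fibroblasts, myeloid cells, endothelium and skeletal muscle were summed in each tumour. The tumour line is human and the hosts were mice, so host cells of these types are mouse cells. Reads were counted on human genes and the handling of mouse reads is not given, so the sums cannot be read as host cell content. The 10 fibroblast markers summed to 429.9 to 2098 CPM in vehicle tumours and 540.9 to 1121 CPM in evexomostat tumours. COL3A1 made up most of this sum, with means of 704.4 CPM under vehicle and 455.0 CPM under evexomostat. The other fibroblast markers averaged from 0.317 CPM (DCN) to 146.5 CPM (COL1A1) under vehicle. The 12 myeloid markers summed to 143.1 to 277.8 and 108.3 to 197.7 CPM. Under vehicle S100A9 averaged 71.2 CPM, CD68 42.3, LYZ 27.0, ITGAM 23.6 and S100A8 18.9. In contrast, C1QA had no more than 1 count in any library and C1QB had 0 in all. Of the 7 endothelial markers the sums were 12.4 to 23.2 and 11.6 to 15.7 CPM. The 8 skeletal muscle markers reached 316.1 CPM in evexomostat replicate 005 against at most 15.5 CPM in vehicle tumours. Of the 37 markers of these 4 lists 29 were tested, and 0 of the 29 had an adjusted p-value under 0.05 in edgeR. In DESeq2 2 were called, both higher, against 1.2% of all genes. At an unadjusted p under 0.05 in edgeR there were 4, all higher, against 4.82% of all genes, while no marker was lower at that p. The 4 were the muscle genes ACTA1, DES, TNNC2 and MYH2, named after their values were seen, and DESeq2 called ACTA1 and DES. Their part in the results was not tested. In bulk tumour RNA, fewer cells of a type and less RNA per cell cannot be told apart.

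In the authors' deposited table, 2 of the 9 members have an adjusted p-value under 0.05, where 0.952% of 28152 symbols do. They are IL6, at a log2 fold change of -1.29 (adjusted p = 0.00687 in the authors' deposited table), and IL11, at 1.46 (adjusted p = 0.0416 in the authors' deposited table). IL6ST, STAT3 and SOCS3 are listed at -0.50, -0.48 and -0.29 in the authors' deposited table, with adjusted p-values of 0.222, 0.311 and 0.911.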

How the data were processed

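RNA from 11 tumours (6 vehicle, 5 evexomostat) was analysed, with groups and replicate numbers taken from the sample titles and columns matched by the code in each sample description. The authors' deposited count table holds whole read counts per gene symbol without normalization. The deposited RPM table holds the same counts scaled to a common total per library, checked with a largest difference of 2e-13. The authors' deposited comparison table holds log2 fold changes, p-values and group means in RPM. Per the submitters' processing notes, bcl2fastq 2.17, STAR 2.7.5c, featureCounts, Subread and edgeR were used, with build GRCh37 (hg19). Annotation, strand setting and what was done with mouse reads are not given in the sources used here. Antisense genes of members held few reads, at most 138 (LIFR-AS1), and could not be separated from their partners without strand.

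Genes were kept by filterByExpr (minimum count 10, minimum total 15), which left 16653 of 28152. Counts were scaled by TMM and tested in edgeR 4.0.16 (R 4.3.3) by its quasi-likelihood method, without covariates, adjusted by Benjamini-Hochberg over all genes at a threshold of 0.05. The SE is the fold change over the root of F, and 95% intervals use the fit's total degrees of freedom. Log2 CPM used a prior count of 2. Alternatives were other scalings, DESeq2 1.42.0, limma 3.58.1, other filters, log2(RPM + 1) and log2(RPM + 0.1), a replicate block and leaving out each library. In simulated counts for this comparison, the share of false calls was above the threshold in edgeR and higher in DESeq2 than in edgeR, so the DESeq2 counts are the less strict. The members and lists were chosen with earlier results of these data known. The text names all members, the pathway genes past the threshold plus the 3 with the smallest p per role, and the 3 nearest profiles to IL6, LIF and SOCS3. Some genes that this rule selects are not reported here.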

Additional observations from a re-analysis of the deposited data

Results flagged for a closer look

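IL11 reached 9.26 CPM in vehicle replicate 001 and 1.88 to 3.06 CPM in the other 5 vehicle tumours, a gap of 0.841 of the group's whole range. LIFR was at 88.8 CPM in evexomostat replicate 002, against 53.6 to 63.5 CPM in the other 4 evexomostat tumours, a gap of 0.718 of the range. These were 2 of 36 extremes compared, in 18 groups, where chance marks about 1 in 20 groups, or 0.9.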

How the results depend on the processing

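With all 11 tumours and edgeR, 101 genes passed (29 higher, 72 lower) and 0 of the members. DESeq2 gave 649 genes and 3 members, limma-voom with quality weights 1059 and 5, and the 8 tumours with shared numbers, without a replicate block, 733 and 4. Leaving out 1 tumour at a time gave 1 to 865 genes and 0 to 5 members, with 5 members only without vehicle replicate 001 and 0 without any other. The fewest genes, 1 to 3, came without evexomostat replicate 005, 002 or 007. The split was 28 higher and 42 lower with upper quartile scaling, 43 and 31 with log2(RPM + 1) and 38 and 30 with log2(RPM + 0.1). The labels do not say that replicate numbers pair the tumours. Tumours with the same number had correlations of deviations of -0.272, 0.0664, 0.0489 and -0.0998, and 1 of 8 libraries correlated best with its own number. So few pairs cannot decide whether the numbers pair the tumours. The replicate block gave 107 genes and 0 members. IL6R reversed to -0.11 with the replicate block and -0.12 on the same 8 tumours without it, and LIF ranged from -0.55 to 0.0418 in the leave-one-out fits. The other 7 members kept their direction in every alternative. The cause was not tested.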

Other observations

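Evexomostat replicate 002 was the highest of the 5 evexomostat tumours for 6 members (LIF, IL11, IL6R, IL6ST, OSMR and LIFR) and the lowest for STAT3 and SOCS3. It held 61.1 IL11 reads per 100 IL6 reads, the highest of all libraries, and 38.7 IL6 reads per 100 LIF reads, the lowest.

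Of the STAT3-responsive list, several liver acute phase genes were at or near 0. FGA and FGB had 0 counts in every library, which allows up to 0.0764 to 0.132 RPM, and CRP and FGG had at most 1 count. SAA1 was at 81.3 to 328.2 CPM in vehicle tumours and 18.0 to 137.3 CPM in evexomostat tumours. CNTF had 8 counts over the vehicle tumours and 0 over the evexomostat tumours, and IL31 had 1 in each group.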
